A study of Homo sapiens with 40 samples.

Results

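Chromatin accessibility was examined at 5 genes of the estrogen receptor pathway, ESR1, PGR, GREB1, TFF1 and TFF3, in BT474 and BT474R breast cancer cells. Accessibility was measured by ATAC-seq, which reads out where a transposase can reach the DNA, and the data are the peaks called in each library by itself. The peaks of all 40 lists were merged wherever they overlapped by at least 1 bp, and regions found in at least 2 lists were kept, which gave 71600 regions. Of these, 71 had their midpoint inside 1 of the 5 genes or within 50 kb of either end. The windows held 17 regions for ESR1, 10 for PGR, 26 for GREB1, 15 for TFF1 and 13 for TFF3, and 10 regions lay in the windows of both TFF1 and TFF3, which are neighbors on chromosome 21. Each shared region was assigned to the nearer gene start, leaving 7 regions under TFF1 and 11 under TFF3. Regions are named here by gene and by the distance in kb, along the gene's strand, of the peak summit from the start of the gene's canonical transcript.

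BT474 is an established breast ductal carcinoma line that overexpresses HER2 and responds to trastuzumab, an antibody against HER2. BT474R is a single clone (clone 5) that was derived from BT474 by growth in trastuzumab and is resistant to it. Cells of both lines were starved of serum and collected at 0 h (baseline) or after 1, 12 or 24 h with epidermal growth factor (EGF), heregulin (HRG) or water (control), with 2 libraries in each of the 20 groups. Both lines were kept in medium without phenol red, a dye with weak estrogenic activity, and the labels name no steroid or antiestrogen, so the comparisons are between the 2 lines and between growth factor and control. The labels call the 2 libraries of a group replicates and name no separate cultures, so p-values measure the spread between these libraries, which may be technical.

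ESR1 encodes estrogen receptor alpha, a nuclear receptor that, once bound by hormone, attaches to DNA as a dimer at the estrogen response element, an inverted repeat of GGTCA with 3 bases between the copies, and recruits coactivators. It commonly binds far from gene starts, at sites where FOXA1 and GATA3 also bind. PGR, which encodes the progesterone receptor, GREB1, a cofactor of the estrogen receptor, and TFF1, a secreted trefoil peptide, are classical genes induced by estrogen in luminal breast cells, and TFF3 encodes a related trefoil peptide. EGF binds EGFR and HRG binds HER3 and HER4, and kinases below these receptors are known to act on the estrogen receptor and on AP-1, a family of Fos and Jun dimers that binds TGACTCA.

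Sequence of 8 regions on which the results below turn is shown first, from the GRCh38 reference and its forward strand, as the summit and 100 bp on either side or, for GREB1 -1.3 kb and TFF1 -0.3 kb, around the middle of the element. In the first 3 regions the capitals mark response elements, exact at GREB1 -1.3 kb and with 1 mismatch at the other two, and at GREB1 -1.3 kb also a GATA motif (AGATAA, here on the other strand). In the ESR1 and PGR regions the capitals mark AP-1 motifs. GREB1 +97.0 kb and TFF3 -2.9 kb are shown as regions with peaks in BT474R alone and hold none of the motifs searched.
GREB1 -35.3 kb, chr2:11498637-11498837: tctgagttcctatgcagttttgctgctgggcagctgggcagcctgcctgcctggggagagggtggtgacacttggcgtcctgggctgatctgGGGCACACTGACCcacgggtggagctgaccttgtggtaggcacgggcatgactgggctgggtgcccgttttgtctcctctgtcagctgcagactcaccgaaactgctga
GREB1 -1.3 kb, chr2:11532440-11532640: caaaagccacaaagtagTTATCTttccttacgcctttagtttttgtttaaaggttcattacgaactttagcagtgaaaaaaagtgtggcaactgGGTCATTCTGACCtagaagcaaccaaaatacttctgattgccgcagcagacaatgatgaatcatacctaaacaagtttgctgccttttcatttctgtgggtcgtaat
TFF1 -0.3 kb, chr21:42366834-42367034: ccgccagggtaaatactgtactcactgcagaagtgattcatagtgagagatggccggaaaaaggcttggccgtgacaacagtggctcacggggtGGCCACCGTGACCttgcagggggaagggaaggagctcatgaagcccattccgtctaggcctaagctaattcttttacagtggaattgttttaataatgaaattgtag
ESR1 -3.8 kb, chr6:151803795-151803995: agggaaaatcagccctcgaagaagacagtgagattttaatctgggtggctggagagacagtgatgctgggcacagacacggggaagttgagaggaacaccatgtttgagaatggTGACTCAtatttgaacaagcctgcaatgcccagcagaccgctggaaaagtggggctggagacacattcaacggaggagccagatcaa
ESR1 +287.7 kb, chr6:152095313-152095513: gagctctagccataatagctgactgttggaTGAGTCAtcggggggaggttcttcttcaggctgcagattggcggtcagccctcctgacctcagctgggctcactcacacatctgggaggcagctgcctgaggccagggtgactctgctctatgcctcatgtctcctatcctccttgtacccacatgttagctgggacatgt
PGR +37.8 kb, chr11:101091910-101092110: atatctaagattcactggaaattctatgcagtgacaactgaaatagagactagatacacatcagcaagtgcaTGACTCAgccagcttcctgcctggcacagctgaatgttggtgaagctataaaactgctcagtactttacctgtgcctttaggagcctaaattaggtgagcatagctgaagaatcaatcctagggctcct
GREB1 +97.0 kb, chr2:11630971-11631171: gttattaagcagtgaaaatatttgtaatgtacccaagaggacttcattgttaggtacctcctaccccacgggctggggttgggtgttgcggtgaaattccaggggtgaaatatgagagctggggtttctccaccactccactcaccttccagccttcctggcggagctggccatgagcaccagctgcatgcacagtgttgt
TFF3 -2.9 kb, chr21:42318251-42318451: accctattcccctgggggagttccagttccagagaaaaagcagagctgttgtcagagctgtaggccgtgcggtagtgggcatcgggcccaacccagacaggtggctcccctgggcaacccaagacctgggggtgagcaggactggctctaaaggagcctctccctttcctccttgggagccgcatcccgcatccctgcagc

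A library was called open at a region if its list had a peak there. Within a list, peaks were ranked by the authors' score, which sums significance along the peak, and the rank was expressed as a percentile in which 100 is the highest peak. The BT474 lists held 47571 to 56846 peaks and were open at 39 to 50 of the 71 regions, and the BT474R lists held 32479 to 56494 peaks and were open at 25 to 56. The 4 shortest BT474R lists were those of control and EGF at 12 h, so results that change without the 12 h libraries are given both ways. Peak lists carry no read totals, so depth was unknown, and a missing peak does not show closed chromatin. The promoters of all 10 luminal epithelial markers examined, among them KRT8, EPCAM, FOXA1 and ERBB2, were open in all 40 libraries. Of 7 genes that mark other cell types, 5 (PTPRC, CD3E, PECAM1, DES and MYOD1) had no promoter region. CDH5 and COL1A1 were open in all 40 libraries, so an open promoter alone does not mark the cell type.

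Between the lines, ESR1 and PGR had more regions called toward BT474, TFF3 had more called toward BT474R, and GREB1 had calls in both directions, 9 toward BT474 and 4 toward BT474R. Of the 71 regions, 17 were open in every library. Another 42 were open in enough but not too many libraries for a difference between 20 and 20 libraries to be detectable, and 33 of these were called (Fisher's exact test, two-sided, Benjamini-Hochberg adjusted p below 0.05). Over the whole genome the same test called 71.7% of 32683 such regions, so a difference between the lines was common everywhere. Of the 33 calls, 20 were regions open more often in BT474 and 13 regions open more often in BT474R, where the shares over all regions tested were 44.6% and 27.2%. Of the 71 regions, 11 were never open in BT474R and 13 never in BT474. The shares of all 71600 regions never open in each line were not computed, so these counts only describe the 71. Without the 12 h libraries, which leaves 14 per line, 24 regions were called, and 10 of the 33 were no longer called. These were ESR1 -173.9 kb, ESR1 -149.5 kb, ESR1 +329.0 kb, PGR +65.9 kb, PGR +141.6 kb, GREB1 -27.9 kb, GREB1 +10.0 kb, GREB1 +28.2 kb, GREB1 +145.5 kb and TFF3 -15.7 kb.

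**Figure D1:**
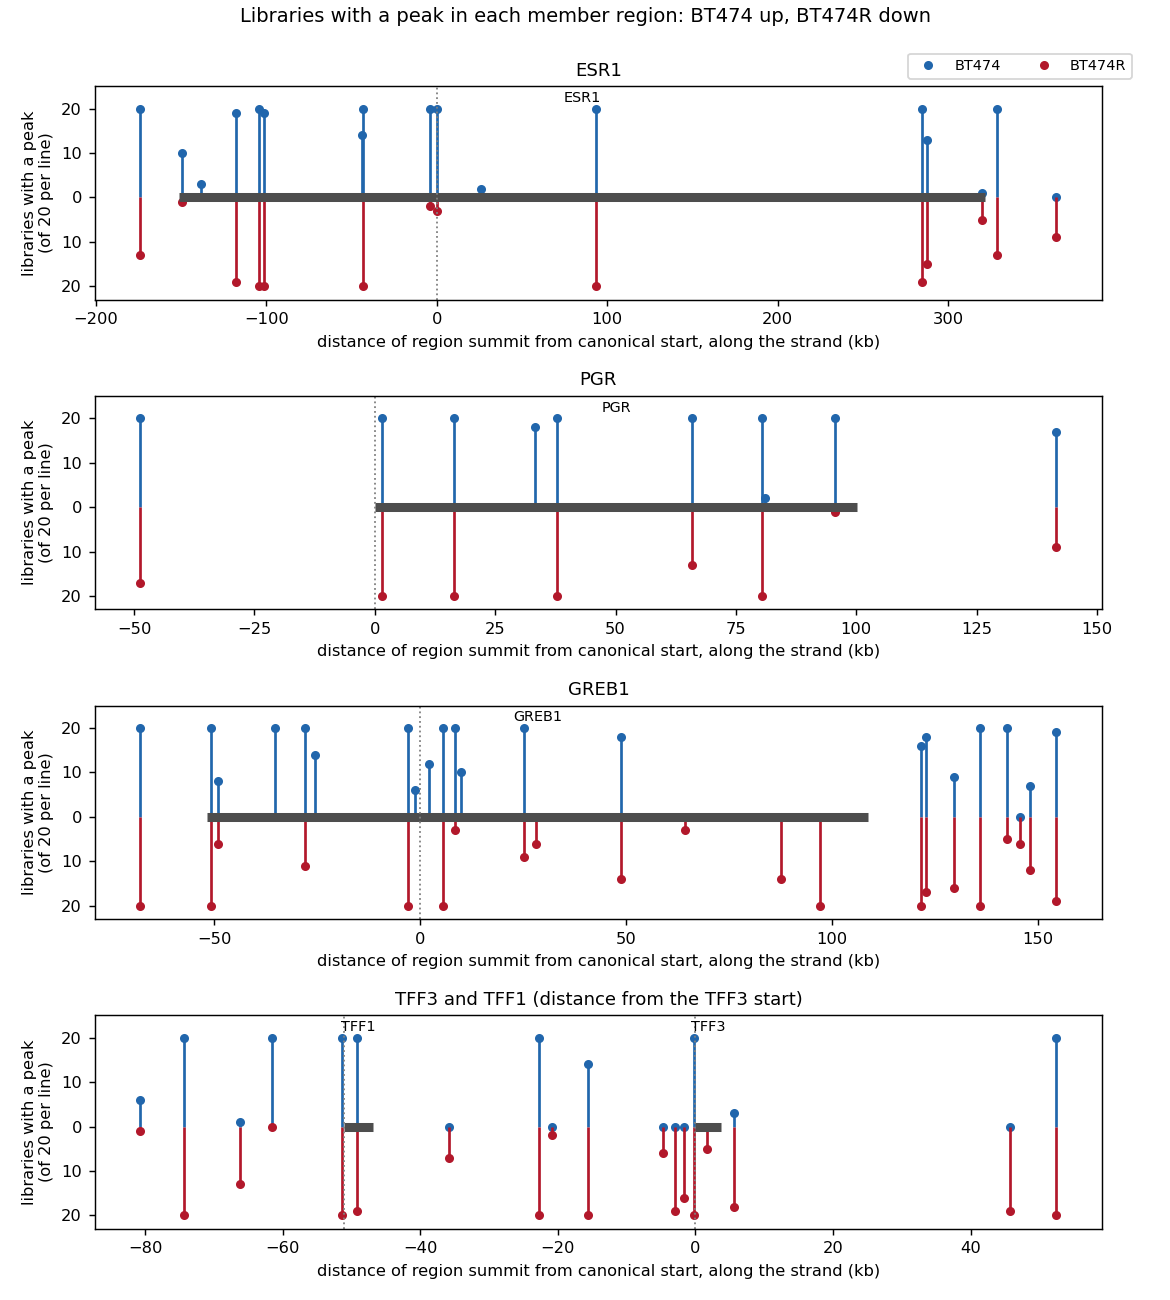
Number of libraries with a peak (vertical axis, of 20 per line, BT474 upward in blue and BT474R downward in red) at each region, by distance of its summit from the canonical start in kb (horizontal axis, along the strand). Grey bars are the gene bodies and dotted lines the canonical starts. Bars are missing or short on the BT474R side at the ESR1 start and across the 5′ part of GREB1, and on the BT474 side around TFF3 and in the 3′ part of GREB1.

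At ESR1 (chr6:151656691-152129619, forward strand, canonical start at 151807682), the regions at the gene start had no peak in most BT474R libraries. The region ESR1 -0.1 kb (chr6:151807123-151808654), which spans the canonical start, was open in all 20 BT474 libraries, at percentiles of 26.8, 62.2 and 70.9 (lowest, median and highest). It was open in 3 BT474R libraries, at 41.2 (baseline replicate 1), 6.8 (control 1 h replicate 1) and 36.0 (HRG 24 h replicate 1), and in each case the other replicate had no peak (Fisher's exact test, adjusted p = 1.46e-07). ESR1 -3.8 kb, which lies within 1 kb of another annotated ESR1 start, behaved in the same way, with peaks in 20 BT474 libraries (8.2, 39.6 and 51.7) and in 2 BT474R libraries, 8.6 in HRG 24 h replicate 1 and 20.9 in EGF 24 h replicate 1 (adjusted p = 2.32e-08). Each of these BT474R peaks was in the longer list of its replicate pair. HRG 1 h replicate 2, also a long list (56334 peaks), had no peak at either region. The part of list length was not tested. At an upstream start of ESR1 the lines were alike in their counts, since ESR1 -117.7 kb was open in 19 of 20 libraries of each line, at a median of 43.0 in BT474 and 39.9 in BT474R.

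Farther from the canonical start, regions of ESR1 moved both ways. ESR1 -43.5 kb was open in all libraries but fell from 76.4, 79.8 and 84.4 in BT474 to 30.8, 47.3 and 65.0 in BT474R, with no overlap between the lines (difference of means -32.3 ± 1.5 SE, limma, adjusted p = 2.70e-15). Its neighbor ESR1 -44.1 kb was open in 14 BT474 libraries and no BT474R library (Fisher's exact test, adjusted p = 1.19e-05). ESR1 -104.3 kb rose instead, from a median of 52.6 to 73.0 (22.8 ± 1.4, limma, adjusted p = 5.84e-13), and the lines overlapped only at the edge, with a highest BT474 value of 65.7 and a lowest BT474R value of 65.2. ESR1 +93.6 kb, in intron 3, was among the highest ESR1 regions in both lines, at medians of 81.1 and 74.4 (-6.39 ± 0.74, limma, adjusted p = 3.12e-08). Over the gene, BT474 libraries were open at 12.05 ± 1.28 of the 17 regions (SD, n = 20) and BT474R libraries at 8.95 ± 2.09 (SD, n = 20). Of 9 regions that could be called by presence, 6 were open more often in BT474 and 1 in BT474R, the latter being ESR1 +363.6 kb (9 libraries against 0).

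**Figure D2:**
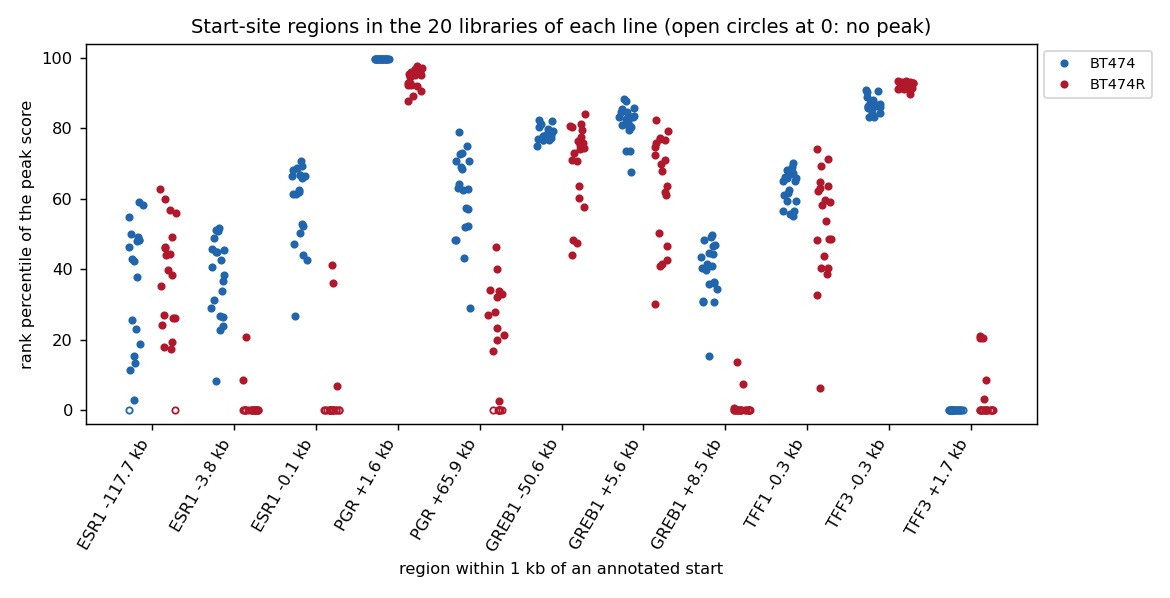
Rank percentile of the peak score (vertical axis, 100 is the highest peak of a list) in the 20 libraries of each line, BT474 in blue and BT474R in red, for the 11 regions within 1 kb of an annotated start of a member gene. Each point is 1 library, and open circles at 0 are libraries with no peak. ESR1 -3.8 kb, ESR1 -0.1 kb and GREB1 +8.5 kb have points on the BT474 side and mostly open circles on the BT474R side, while PGR +1.6 kb and TFF3 -0.3 kb lie above 80 in both lines.

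The start of PGR (chr11:101029624-101129813, reverse strand) had a peak in every library and a lower rank in BT474R. PGR +1.6 kb (chr11:101126851-101129981), which covers the start and exon 1, was among the very highest peaks of BT474, at 99.7, 99.8 and 99.8, and stood at 87.9, 95.1 and 97.7 in BT474R, with no overlap (-5.69 ± 0.39, limma, adjusted p = 3.39e-12). Its peak was also narrower, since a median of 2182.5 bp of the region was covered in BT474R and 3109 bp in BT474, and the score grows with the width of a peak. The regions inside the gene were divided. PGR +95.5 kb, in exon 8, was open in 20 BT474 libraries (43.3, 55.5 and 67.6) and in 1 BT474R library, control 1 h replicate 1, at 14.4 (Fisher's exact test, adjusted p = 2.64e-09). PGR +33.3 kb was open in 18 BT474 libraries and no BT474R library (adjusted p = 2.32e-08).

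PGR +37.8 kb, in intron 2, was lower in BT474R, at 19.7, 43.7 and 60.8 against 56.9, 63.5 and 71.6 (-21.8 ± 1.3, limma, adjusted p = 3.69e-13). PGR +80.3 kb, in intron 6, was higher there, at 76.8, 80.2 and 84.7 against 61.4, 66.9 and 75.1, with no overlap (12.98 ± 0.67, limma, adjusted p = 1.86e-14), and PGR +16.5 kb was higher by 14.7 ± 1.6 (limma, adjusted p = 1.13e-08). PGR +65.9 kb, which lies within 1 kb of the start of a shorter PGR transcript, was open in 20 BT474 libraries at a median of 62.9 and in 13 BT474R libraries at a median of 27.8 (Fisher's exact test, adjusted p = 0.0133), a call lost without the 12 h libraries, where it was open in 14 of 14 and 11 of 14 (unadjusted p = 0.222). BT474 libraries were open at 8.85 ± 0.67 and BT474R libraries at 6 ± 1.21 of the 10 PGR regions (SD, n = 20 each), and all 4 regions that could be called by presence were open more often in BT474, of which PGR +65.9 kb and PGR +141.6 kb were not called without the 12 h libraries.

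GREB1 (chr2:11482341-11642788, forward strand, canonical start at 11534045) was divided along its length. The 2 largest differences were opposite. GREB1 -35.3 kb (chr2:11498471-11498957), which lies in the gene but before the canonical start and holds a response element with 1 mismatch near its summit, was open in 20 BT474 libraries (40.6, 52.1 and 62.7) and in no BT474R library. GREB1 +97.0 kb (chr2:11630783-11631306), in intron 26, was open in no BT474 library and in 20 BT474R libraries (54.4, 70.3 and 77.5). The adjusted p was 1.91e-10 for both (Fisher's exact test), the smallest value that 20 against 20 libraries allow after this adjustment.

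Around the canonical start, GREB1 -2.9 kb was open in all libraries and fell from 64.7, 69.8 and 74.2 in BT474 to 16.8, 45.3 and 58.9 in BT474R, with no overlap (-26.5 ± 1.7, limma, adjusted p = 1.61e-12). GREB1 +5.6 kb, at an internal start, fell by 18.5 ± 2.6 (medians 82.9 and 68.9, limma, adjusted p = 6.97e-07). GREB1 +8.5 kb, at a further internal start, was open in 20 BT474 libraries and in 3 BT474R libraries, both baseline replicates and HRG 24 h replicate 1 (Fisher's exact test, adjusted p = 1.46e-07). The first promoter, GREB1 -50.6 kb, had medians of 78.1 and 74.3, and its call (-8.63 ± 2.14, limma, adjusted p = 7.54e-04) was lost without the 12 h libraries (-4.06, adjusted p = 0.144).

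Other GREB1 regions with peaks in BT474 alone were, chosen after their values were seen, GREB1 -25.5 kb (14 libraries), GREB1 +2.2 kb (12), GREB1 +10.0 kb (10) and GREB1 -1.3 kb (6), and those with peaks in BT474R alone were GREB1 +87.6 kb (14), GREB1 +28.2 kb (6) and GREB1 +145.5 kb (6), all called by Fisher's exact test. Without the 12 h libraries GREB1 +28.2 kb was open in 4 of 14 BT474R libraries (unadjusted p = 0.0978), GREB1 +145.5 kb in 5 of 14 and GREB1 +10.0 kb in 5 of 14 BT474 libraries (adjusted p = 0.0537 for both), and none of these calls remained. GREB1 +142.4 kb, beyond the gene at the start of LPIN1, was open in 20 BT474 and 5 BT474R libraries (Fisher's exact test, adjusted p = 3.16e-06). Of the 18 GREB1 regions that could be called, 9 were open more often in BT474 and 4 in BT474R, and the libraries were open at 16.85 ± 1.93 and 14.05 ± 3.59 of 26 regions (SD, n = 20 each).

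TFF3 (chr21:42311667-42315409, reverse strand) was the gene at which BT474R had more peaks, with shared regions assigned to the nearer start. The TFF1 window, which shares 10 regions with that of TFF3, had 6 regions called toward BT474R and 1 toward BT474. Its promoter, TFF3 -0.3 kb, was open in all libraries, at 83.4, 86.3 and 90.9 in BT474 and 89.8, 92.2 and 93.6 in BT474R (5.42 ± 0.32, limma, adjusted p = 2.18e-13). Upstream of it, TFF3 -2.9 kb was open in 19 BT474R libraries (3.0, 38.8 and 63.3) and no BT474 library (Fisher's exact test, adjusted p = 2.64e-09), and TFF3 -1.7 kb in 16 and none (adjusted p = 7.41e-07). Downstream, TFF3 +5.6 kb was open in 18 BT474R and 3 BT474 libraries (adjusted p = 1.19e-05), with medians of 37.6 and 1.9 where a peak was called, and TFF3 +45.8 kb in 19 and none (adjusted p = 2.64e-09). TFF3 -15.7 kb, named after its values were seen, was open in all 20 BT474R libraries at a median of 78.8 and in 14 BT474 libraries at a median of 17.0, and its lowest BT474R value (52.9) lay above its highest BT474 value (38.7). Its presence call (Fisher's exact test, adjusted p = 0.0287) was lost without the 12 h libraries (adjusted p = 0.0537).

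TFF3 -22.7 kb rose from a median of 73.8 to 85.7 (11.7 ± 0.80, limma, adjusted p = 3.34e-12). None of the 7 testable TFF3 regions was open more often in BT474 and 6 were open more often in BT474R, where libraries were open at 8.25 ± 1.52 of 11 regions against 3.85 ± 0.67 in BT474 (SD, n = 20 each). The region in TFF3 itself near an internal start, TFF3 +1.7 kb, was open in 5 BT474R libraries and no BT474 library, which was not called (adjusted p = 0.0597 by Fisher's exact test).

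At TFF1 (chr21:42362282-42366535, reverse strand), the promoter region TFF1 -0.3 kb was open in all libraries, at 55.2, 65.1 and 70.3 in BT474 and over a wide range in BT474R, 6.4, 56.0 and 74.2. It was called lower in BT474R (-10.9 ± 2.2, limma, adjusted p = 6.84e-05), but not without the 12 h libraries (-3.32, adjusted p = 0.0821). TFF1 -10.4 kb (chr21:42376162-42377019) was open in 20 BT474 libraries (17.0, 46.7 and 60) and no BT474R library (Fisher's exact test, adjusted p = 1.91e-10). TFF1 -15.0 kb was the reverse, with 1 BT474 and 13 BT474R libraries (adjusted p = 3.57e-04), as was TFF1 +15.4 kb, at the start of the third trefoil gene TFF2 (0 and 7 libraries, adjusted p = 0.0133). TFF1 -23.2 kb, at the start of TMPRSS3, did not pass the test, at medians of 57.4 and 54.8 (0.86 ± 1.75, limma, adjusted p = 0.653).

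Among the 17 regions open in all 40 libraries, 15 were called by rank, 5 higher and 10 lower in BT474R, against 82.8% of 25166 regions over the genome (32.6% higher and 50.2% lower). The median difference over the 17 was -5.69 percentile points and over all regions -1.51. Over the genome 39.4% of the calls were higher in BT474R, a share that became 49.4%, 52.0% and 49.8% with percentiles among shared regions, log2 scores and an equal number of top peaks, while the members became 5 higher and 9 lower, 7 and 9, and 4 and 5. TFF3 +52.5 kb was the member that changed direction, at -2.72 (limma, adjusted p = 0.0349) as deposited and 0.0922 (adjusted p = 0.947) among shared regions, and leaving out any of 16 libraries removed its call. The remaining member not called was GREB1 +136.0 kb (-5.02, limma, adjusted p = 0.0713).

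**Figure D3:**
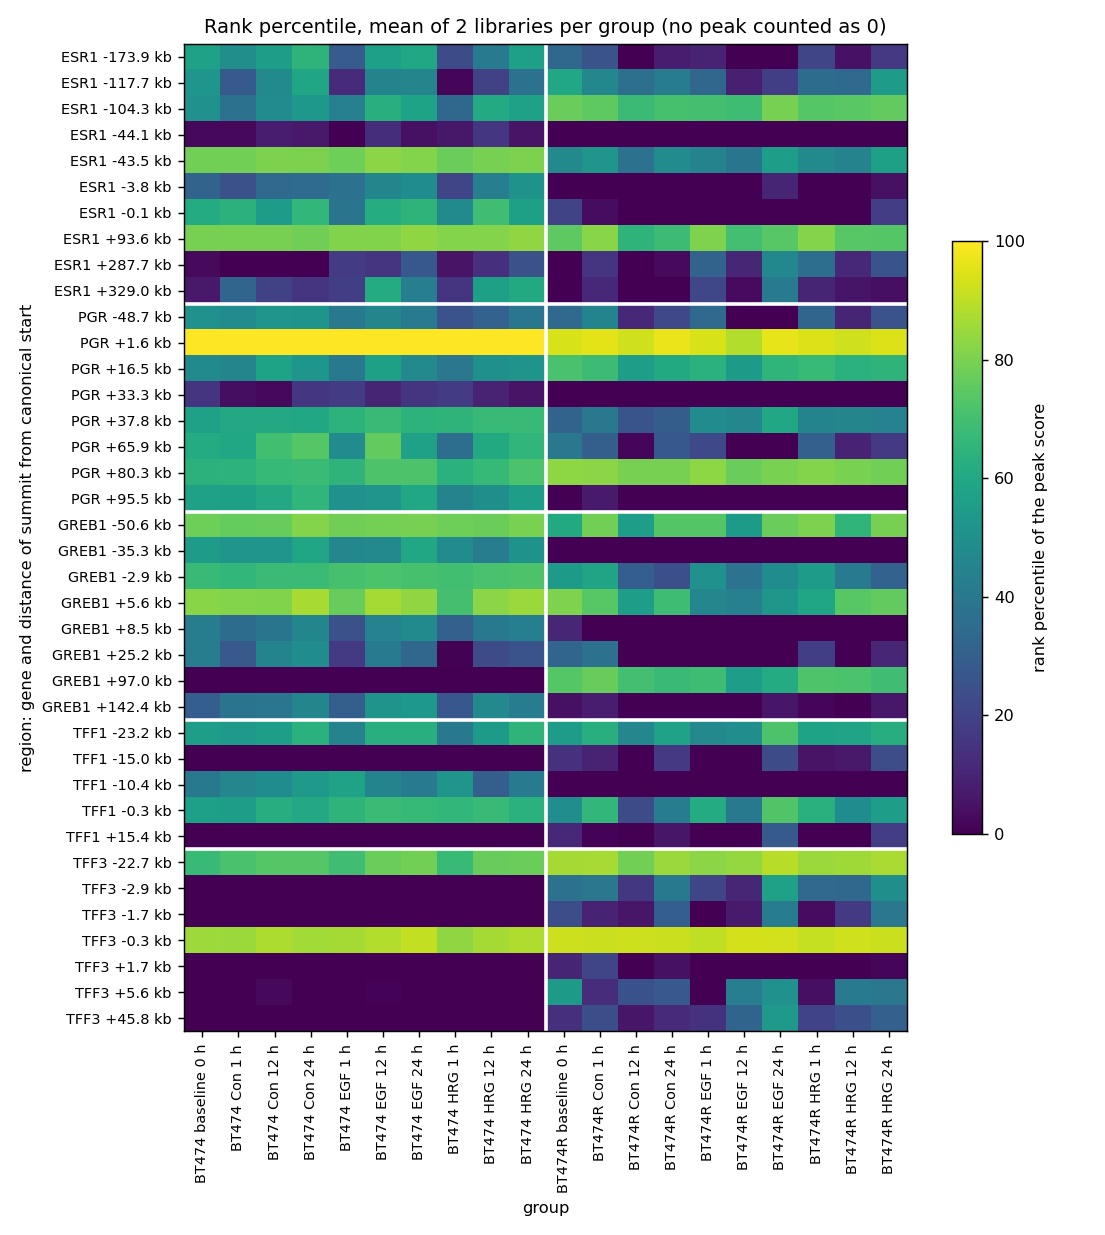
Mean rank percentile of 2 libraries (color, 0 to 100, no peak counted as 0) for named regions (rows, by gene) in the 20 groups (columns, BT474 left and BT474R right of the white line). Rows such as GREB1 -35.3 kb and TFF1 -10.4 kb are dark in every BT474R group while GREB1 +97.0 kb and TFF3 -2.9 kb are dark in every BT474 group.

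Regions flanking the windows by up to 5 Mb were examined to see whether the direction at each gene differed from that of its surroundings. Around ESR1, 63.9% of 72 testable flanking regions were open more often in BT474 and 2.78% more often in BT474R, and the median rank difference was -15.7. Around PGR the shares were 62.8% and 9.30% of 86 regions (median -5.40). At both genes this was also the more common direction of the presence calls in the window. By rank, the window medians were -6.39 over 3 regions at ESR1 and 3.64 over 4 regions at PGR, the latter opposite in sign to its flanks. Around GREB1 the flanks went the other way from the gene, with 20.8% more often open in BT474 and 49.4% in BT474R of 154 regions (median 2.70), against 9 and 4 of 18 in the window. Around TFF1 and TFF3 the shares were 17.4% and 49.0% of 155 and 17.3% and 49.4% of 156 regions (medians 5.37 and 5.23). More regions of both windows were also called toward BT474R, 6 of 9 against 1 for TFF1 and 7 of 8 against 0 for TFF3. Differences in DNA copy number between the lines were not measured here, and their part in these values was not tested.

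Other genes of the pathway were described by the promoters of fixed lists, to be read against the 32.6% of all regions open in every library that were higher in BT474R and the 50.2% that were lower. Of 5 other steroid and nuclear receptor genes, 4 were open in all 40 libraries, with 3 lower in BT474R, RARA by -17.4, ESR2 by -1.26 and ESRRA by -0.30, and 1 higher, NR3C2 by 5.88 (limma), and NR3C1 was open in 20 BT474 and 16 BT474R libraries. Of 6 cofactor genes, all were open in all 40 libraries, and GATA3 (-26.2) and NCOA3 (-4.57) were lower and XBP1 higher (8.35), while FOXA1 stood at 99.8 in both lines. Of 16 other estrogen targets, 15 had a promoter region and 9 were open in all 40 libraries, of which 8 were lower in BT474R, including AREG (-19.1), MYB (-12.0) and STC2 (-8.68), and CELSR2 was higher (9.04). CA12, a carbonic anhydrase gene induced by estrogen, had a promoter peak in 20 BT474 libraries and no BT474R library. The other targets not open in all libraries were IGF1R (20 and 9), CTSD (13 and 2), IGFBP4 (20 and 15), EGR3 (20 and 18) and TFF2 (0 and 7). By presence, 44.6% of all regions tested were called toward BT474 and 27.2% toward BT474R.

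The ligands were then compared with the control of the same line over 1, 12 and 24 h, 6 libraries against 6. In BT474 the presence of a peak changed at 1 of the 71 regions, ESR1 +287.7 kb (chr6:152095199-152095550), a 352 bp region in intron 7 of ESR1 that holds an AP-1 motif. It was named, like ESR1 +329.0 kb, ESR1 +284.6 kb, ESR1 -173.9 kb, PGR -48.7 kb and GREB1 +25.2 kb in the next paragraphs, after its values were seen. It was open in 0 of 6 control libraries and in 6 of 6 after EGF, at 28.9 and 6.7 (1 h), 9.1 and 20.8 (12 h) and 32.9 and 22.3 (24 h), and in 6 of 6 after HRG, at 7.5 and 3.2, 7.8 and 19.5, and 32.9 and 16.9. These were low peaks of their lists. By Fisher's exact test the adjusted p was 0.0335 for EGF and 0.0241 for HRG. Over the genome 6.46% of 4492 and 8.98% of 4754 testable regions were called for EGF and HRG, and 6 and 5 of the 71 regions could be tested. One of the 2 baseline libraries also had a peak there (4.9), and no call remained without the 12 h libraries (adjusted p = 0.137 and 0.118), although the counts were still 4 of 4 against 0 of 4, or with a score of at least 400. In BT474R the region was open in 6 of 6 EGF and 6 of 6 HRG libraries and in 3 of 6 control and 0 of 2 baseline libraries. By Fisher's exact test 0 of 6819 regions were called for EGF and 0 of 6415 for HRG in BT474R, with 278 (4.08%) and 148 (2.31%) at an unadjusted p below 0.05. Of the 71 regions 8 and 5 could be tested there, and 0 reached that unadjusted p.

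The rank of peaks could be tested at 32 of the 71 regions in BT474, those with a peak in all 20 libraries of the line. EGF changed 8, of which 6 rose and 2 fell, and HRG changed 10, of which 5 rose and 5 fell (limma, 3 times averaged), against 18.8% and 18.7% of 36820 regions over the genome. For EGF 17.6% of all regions rose and 1.19% fell, and for HRG 13% rose and 5.71% fell. The genome-wide calls were higher in 93.7% of cases for EGF and 69.4% for HRG, and with percentiles among shared regions in 61.8% and 56.4%. The members then became 3 higher and 5 lower for EGF and 5 and 7 for HRG. Because both ligands share the control libraries, their values are set side by side and were not compared.

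The largest rise was at the 3′ end of ESR1. ESR1 +329.0 kb (chr6:152136126-152136800) lies beyond the end of ESR1, within the neighboring gene SYNE1, and holds an AP-1 motif. At 12 h its control values were 21.9 and 17.8, its EGF values 60.2 and 63.3 and its HRG values 53.6 and 59.9. At 24 h they were 12.8 and 17.1, 39.0 and 46.6, and 59.0 and 62.1. At 1 h, in contrast, the controls were not lower, at 44.3 and 21.0 against 17.4 and 19.9 after EGF and 10.4 and 20.5 after HRG. By limma the 12 h differences were 41.9 ± 6.2 for EGF (adjusted p = 0.00143) and 36.9 ± 6.2 for HRG (adjusted p = 0.00207), the 24 h differences 27.8 (adjusted p = 0.00903) and 45.6 (adjusted p = 4.91e-04), and the 1 h differences -14.0 (adjusted p = 0.274) and -17.2 (adjusted p = 0.0974). The average over times was 18.6 ± 3.6 for EGF (limma, adjusted p = 0.00222) and 21.8 ± 3.6 for HRG (adjusted p = 7.24e-04), which without the 12 h libraries were 6.91 (adjusted p = 0.416) and 14.2 (adjusted p = 0.0858). The 24 h EGF call was lost without control replicate 1 or EGF replicate 2 of that time, and with percentiles among shared regions (6.11, adjusted p = 0.236). In BT474R a peak was called in 6 of 6 EGF, 5 of 6 HRG and 2 of 6 control libraries, and the 24 h EGF values were 29.5 and 52.8.

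ESR1 +284.6 kb, in intron 6, rose by 13.8 ± 3.2 with EGF (limma, adjusted p = 0.00790) and by 11.3 ± 3.2 with HRG (adjusted p = 0.0252), the latter not without the 12 h libraries (8.63, adjusted p = 0.130). Upstream of ESR1 the change was a fall. ESR1 -173.9 kb stood at 47.7, 56.1 and 65.9 in control, 23.5, 54.1 and 64.0 after EGF and 16.4, 40.9 and 59.7 after HRG (lowest, median and highest of 6). It fell by 16.8 ± 2.8 with HRG (limma, adjusted p = 9.18e-04), most at 1 h, where the controls were 51.1 and 47.7 and the HRG libraries 16.4 and 29.4 (-26.5, adjusted p = 0.00472, lost without HRG replicate 1 of that time). The start regions ESR1 -0.1 kb and ESR1 -3.8 kb were tested and not called for either ligand, and ESR1 -117.7 kb, with a peak in 19 libraries, could not be tested.

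**Figure D4:**
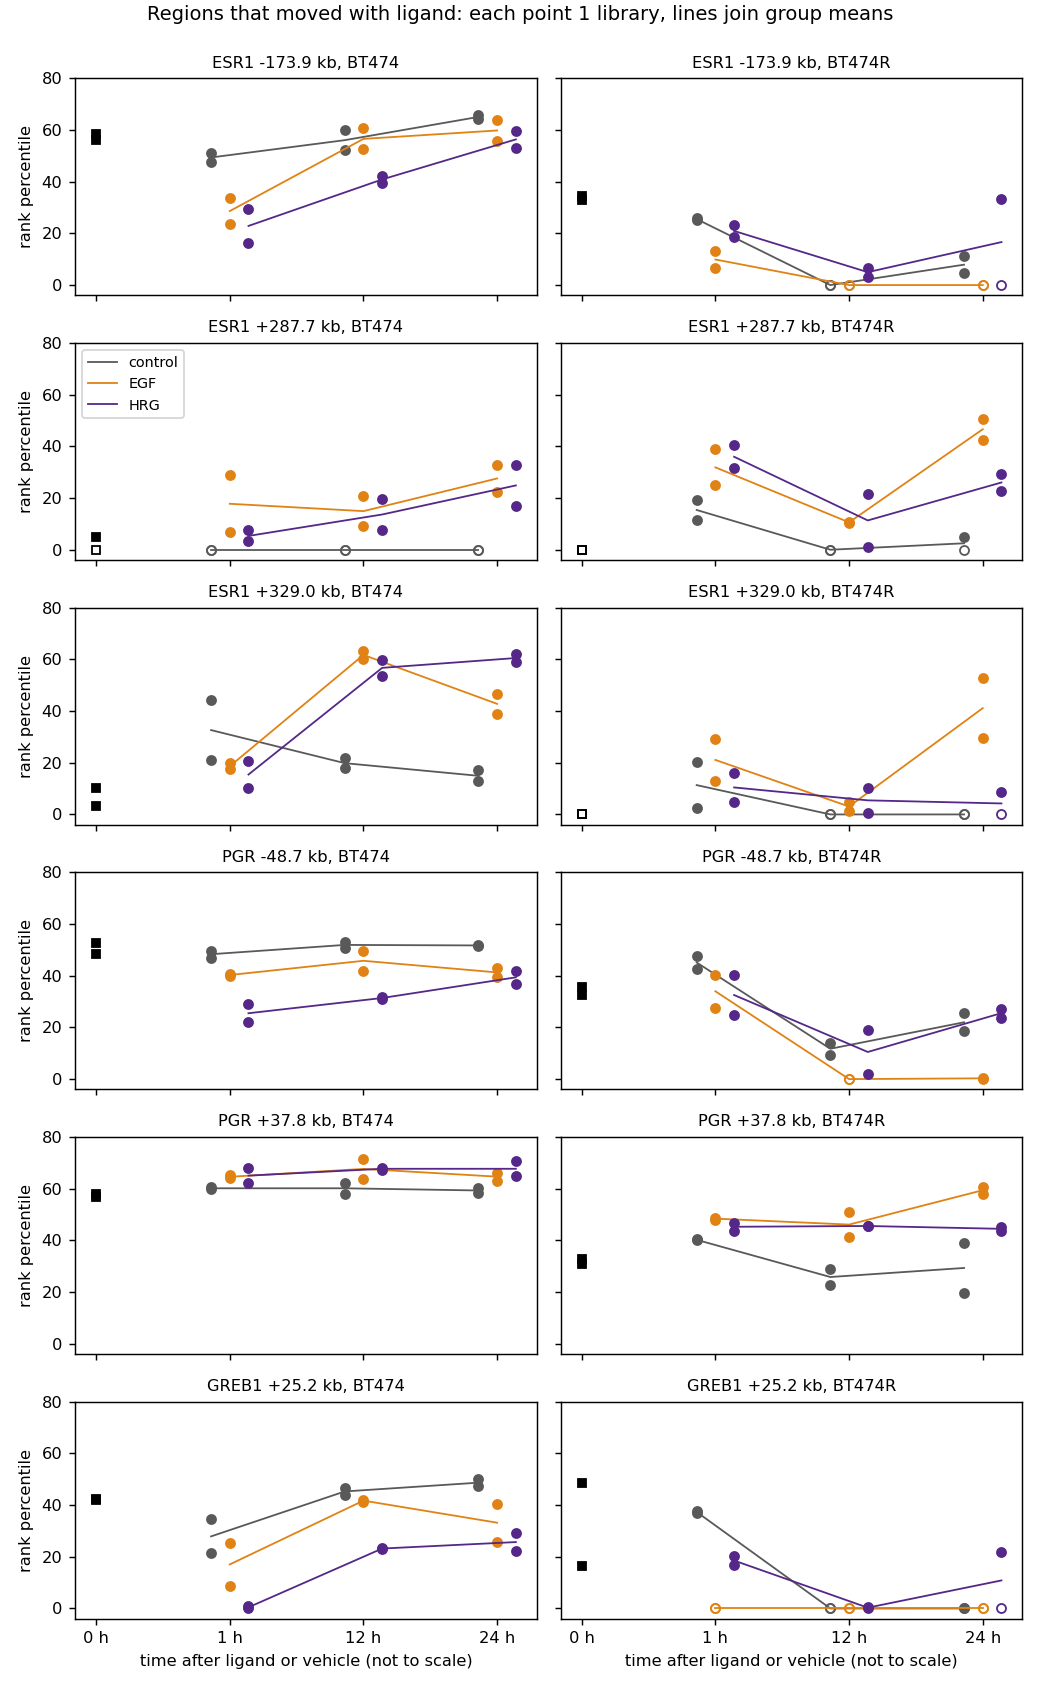
Rank percentile (vertical axis, 0 to 80) by time after ligand or water in h (horizontal axis, not to scale) at 6 regions in BT474 (left) and BT474R (right). Points are single libraries (grey control, orange EGF, purple HRG, black squares baseline), open symbols at 0 are libraries with no peak, and lines join group means with no peak counted as 0. In BT474, ESR1 +329.0 kb rises above control at 12 and 24 h with both ligands, PGR -48.7 kb and GREB1 +25.2 kb lie below control after HRG, and in BT474R PGR +37.8 kb lies above control after EGF.

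At PGR, peaks in the flank and at the 3′ end fell and an intronic peak rose. PGR -48.7 kb, upstream of the gene, stood at 47.0, 51.1 and 53.2 in control, 39.6, 41.4 and 49.7 after EGF and 22.0, 31.4 and 41.9 after HRG. Every HRG library lay below every control library (-18.6 ± 1.9, limma, adjusted p = 2.21e-05), by 22.9 at 1 h, 20.6 at 12 h and 12.3 at 24 h, each of which passed the test, and EGF lowered it by 8.22 ± 1.92 (adjusted p = 0.00813). PGR +95.5 kb fell by 10.9 ± 1.8 with HRG (limma, adjusted p = 6.61e-04) and by 6.94 ± 1.76 with EGF (adjusted p = 0.0133), and PGR +65.9 kb by 13.6 ± 3.4 with HRG (adjusted p = 0.0121). PGR +37.8 kb rose by 5.77 ± 1.75 with EGF (limma, adjusted p = 0.0336) and 6.97 ± 1.75 with HRG (adjusted p = 0.0127), calls that were lost without the 12 h libraries (adjusted p = 0.142 and 0.0502). With EGF it was also lost without any of 9 single libraries. The PGR promoter, PGR +1.6 kb, was tested and not called. It stood at 99.7 to 99.8 in every BT474 library, near the top of the scale, so the test could hardly show a rise.

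GREB1 +25.2 kb (chr2:11558950-11559584), in intron 2, fell with HRG at each time. In control it stood at 21.3, 45.3 and 50.1 and after HRG at 0.1, 22.6 and 29.2, and the 2 HRG libraries at 1 h held almost the lowest peaks of their lists (0.1 and 0.8). The difference averaged over times was -24.2 ± 3.4 (limma, adjusted p = 2.26e-04). The 1 h difference, -27.5 ± 5.9 (adjusted p = 0.0102), was not called with percentiles among shared regions (-4.32, adjusted p = 0.269). In BT474R it was open in 3 of 6 control, 0 of 6 EGF and 4 of 6 HRG libraries. At GREB1 +5.6 kb the 1 h HRG libraries differed from control by -10.8 ± 2.1 (limma, adjusted p = 0.00640), a call lost without replicate 1 of either arm.

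The TFF1 promoter rose slightly with both ligands, and the TFF3 promoter was called for EGF but not for HRG. TFF1 -0.3 kb stood at 55.2, 59.5 and 65.1 in control, 62.5, 66.7 and 70.3 after EGF and 61.6, 66.1 and 68.3 after HRG, a rise of 7.21 ± 1.57 with EGF (limma, adjusted p = 0.00519) and 6.34 ± 1.57 with HRG (adjusted p = 0.0117). With percentiles among shared regions the EGF value was 6.77 (adjusted p = 0.0558). TFF3 -0.3 kb rose by 2.32 ± 0.63 with EGF (limma, adjusted p = 0.0199), which did not pass with 3 other scalings (adjusted p from 0.0913 to 0.313), and TFF3 +52.5 kb by 9.25 ± 1.84 with EGF (adjusted p = 0.00290) and 6.35 ± 1.84 with HRG (adjusted p = 0.0278), the latter not without the 12 h libraries (6.24, adjusted p = 0.117).

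Single times gave fewer calls for EGF at first and more for HRG. By limma, EGF called 1, 1 and 5 of the 32 regions at 1, 12 and 24 h, where 2.92%, 8.23% and 14.7% of all regions were called, and HRG called 8, 4 and 4, where 10.8%, 9.04% and 12% were called. At 1 h HRG lowered 7 of the 32 regions, where 6.97% of all regions were lowered, and raised 1. Over the genome 35.3% of the HRG calls at 1 h were rises. With percentiles among shared regions that share was 57.5%, and the members were 1 rise and 4 falls.

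In BT474R, 21 of the 71 regions could be tested by rank, those with a peak in all 20 libraries of the line. Of these 21, EGF changed 2 and HRG 1 (limma, averaged over times), against 14.2% and 8.2% of 28260 regions. TFF1 +2.0 kb and TFF3 +45.8 kb lacked a peak in control 12 h replicate 1 and could not be tested this way. After EGF at 24 h, TFF1 +2.0 kb, named after its values were seen, stood at 76.2 and 78.3 against 26.1 and 31.7 in control. Its baseline values were 47.0 and 53.3. At 1 h EGF gave 54.0 and 54.0 against 54.3 and 52.3, and at 12 h 25.3 and 20.7 against 32.3 in the control with a peak. In BT474 at 24 h, EGF gave 15.3 and 23.5 against 26.2 and 31.6. TFF3 +45.8 kb in BT474R stood at 53.4 and 54.4 after EGF at 24 h against 14.3 and 9.6. At 1 h it stood at 17.5 and 11.6 against 26.1 and 22.3. PGR +37.8 kb had control values of 40.5 and 40 (1 h), 22.6 and 29.1 (12 h) and 19.7 and 39.0 (24 h). After EGF the values were 48.1 and 48.8, 51.1 and 41.2, and 58.1 and 60.8, and after HRG 46.9 and 43.7, 45.6 and 45.6, and 45.4 and 43.6. All 6 libraries of each ligand lay above all 6 controls, and the baseline libraries, at 30.7 and 32.7, lay among the controls. The rise was 19.5 ± 3.1 with EGF (limma, adjusted p = 0.00107) and 13.3 ± 3.1 with HRG (adjusted p = 0.0195), the latter not called without the 12 h libraries (10.1, adjusted p = 0.495) or with percentiles among shared regions (5.56, adjusted p = 0.245).

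GREB1 +97.0 kb, the intronic region with peaks in BT474R alone, fell with EGF from a mean of 71.5 to 62.1 (-9.38 ± 1.63, limma, adjusted p = 0.00199). Its EGF values were 70.4 and 67.3 at 1 h, 57.4 and 54.4 at 12 h and 63.0 and 60.3 at 24 h, where the controls were 77.5 and 75.6, 68.0 and 72.4, and 65.6 and 69.8. Without the 12 h libraries the fall was 6.89 (adjusted p = 0.0854). At single times the calls were 0, 2 and 1 for EGF, against 0.138%, 8.16% and 9.02% of all regions, and 0, 1 and 0 for HRG, against 0%, 14% and 0.138% (limma). At an unadjusted p below 0.05, EGF gave 4 at 1 h (10.4% of all regions) and HRG 0 at 1 h (1.05%) and 2 at 24 h (9.87%).

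The ligand effects of the lines were compared directly at the 17 regions open in all 40 libraries. The EGF effect differed at 1, PGR +37.8 kb, where it was larger in BT474R by 13.7 ± 3.4 percentile points (limma interaction, adjusted p = 0.0279), against 3.04% of 25166 regions called over the genome. With log2 scores this did not pass (adjusted p = 0.120), nor without the 12 h libraries (14.2, adjusted p = 0.173), and leaving out any of 9 of the 40 libraries removed it (highest adjusted p = 0.0617). For HRG the interaction called 0 of the 17, with 1 at an unadjusted p below 0.05 (15.2% of all regions), against 1.56% called over the genome (limma).

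The control libraries were set against baseline to show change without ligand. In BT474 0 of 32 regions were called at each time by limma, against 0.076%, 0.117% and 0.394% of all regions. At an unadjusted p below 0.05 they were 4, 2 and 6, against 7.33%, 9.99% and 13.3%. In BT474R 0, 9 and 2 of 21 were called at 1, 12 and 24 h, against 0.0955%, 32.3% and 3.33%, with 1 at an unadjusted p below 0.05 at 1 h (11.8% of all regions). The 9 at 12 h were all lower and included TFF1 -0.3 kb (-25.5, adjusted p = 0.0455) and ESR1 +93.6 kb (-9.78, adjusted p = 0.0260). With percentiles among shared regions, log2 scores or equal numbers of peaks 0 of them were called, and the control lists at 12 h were the shortest or among the shortest of the series.

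Motifs were counted within 100 bp of each summit on both strands. AP-1 (TGACTCA) was found in 9 of the 71 regions (12.7%) and in 12.98% of all 71600, the forkhead motif (TGTTTAC) in 6 and 8.48%, and the GATA motif (AGATAA) in 5 and 8.89%. The exact response element was found in 0 of the 71 and 0.0419% of all. Peaks rose with ligand at the AP-1 regions ESR1 +287.7 kb, ESR1 +329.0 kb, PGR +37.8 kb and TFF3 +52.5 kb. Of the other AP-1 regions, ESR1 -3.8 kb was tested by rank in BT474 and ESR1 +363.6 kb by presence in BT474R. Neither was called for a ligand. ESR1 -138.6 kb, PGR +81.1 kb and GREB1 +28.2 kb had peaks in too few libraries to be tested. The share of AP-1 regions over the genome that rose with ligand was not computed, so these regions are only listed. ESR1 +284.6 kb and TFF1 -0.3 kb also rose with ligand and held no AP-1 motif near the summit.

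Because elements can lie away from the summit, whole regions were also searched, a choice made after seeing the data. An exact response element lay in 1 of the 71 regions and 83 of all 71600 (0.116%), and one with at most 1 mismatch in 5 and 1655 (2.31%). The exact element, GGTCATTCTGACC at chr2:11532534-11532546, was in GREB1 -1.3 kb with its centre at -1505 bp from the canonical start, a region open in 6 of 20 BT474 libraries, at percentiles from 1.9 to 16.8, and in no BT474R library (Fisher's exact test, adjusted p = 0.0287). The TFF1 promoter held GGCCACCGTGACC at chr21:42366928-42366940, at -399 bp from the start (T3C, counting from the first base of the element written above), and GREB1 -35.3 kb held GGGCACACTGACC (T3G) at -2 bp from its summit. The other 2 regions were PGR +95.5 kb (C13A) and ESR1 -149.5 kb (C4T). Of the 5, 4 were called as open more often in BT474 (Fisher's exact test), as were 44.6% of all regions tested. Of these 4, ESR1 -149.5 kb was not called without the 12 h libraries (Fisher's exact test, adjusted p = 0.0971). TFF1 -0.3 kb was open in every library. The share called among all 1655 regions with such an element was not computed.

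The promoters whose group means over the 20 groups were most like those of a member gene's promoter are given as a description, without a test. For PGR +1.6 kb they were SLC22A5 (Pearson r = 0.984), ADHFE1 (0.983) and SYT17 (0.982) among 14492 promoters on other chromosomes. For GREB1 -50.6 kb they were JMJD1C (0.966), KLF4 (0.963) and DEPDC1B (0.963), and for TFF1 -0.3 kb ISG20 (0.954), CD163L1 (0.943) and HINT3 (0.943). For TFF3 -0.3 kb they were PPP1R32 (0.965), FLAD1 (0.964) and the region shared by CIZ1 and DNM1 (0.964), and for ESR1 -117.7 kb NAT8B (0.871), HOXB13 (0.829) and EXOSC10 (0.814). Groups of the same line share much of this pattern, and so do the lengths of the lists.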

How the data were processed

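ATAC-seq was performed on 40 libraries of 2 established cell lines, in 20 groups of 2. Per the labels and the study's methods, the authors trimmed reads with Trim Galore 0.6.6, aligned them with BBMap to GRCh38, removed mitochondrial and blacklisted reads and called peaks in each library with Genrich, with options not given in the sources used. The deposited score (column 7, the lowest of which was 200 in the lists) is Genrich's area under the curve, which sums significance over a peak and grows with its width. The study's test on reads was not repeated, since peak lists hold no reads and depth was unknown.

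Genes were taken from GENCODE release 44 and sequences from the GRCh38 reference. Python 3.11.15, pandas 2.3.3, scipy 1.17.1, R 4.3.3 and limma 3.58.1 were used. Presence was tested by Fisher's exact test, two-sided, with Benjamini-Hochberg adjustment over the regions that could reach 0.05, and rank percentiles by limma with a trend, over all regions with a peak in every library of the fit. Peaks on other sequences (24 to 36 per library) were left out. The tests were checked on simulated data. For EGF in BT474 averaged over times, limma recovered 37% of 100 regions shifted by 10 percentile points and 84% of 100 shifted by 20. It called 13 of 36620 unchanged regions. A region tested and not called may therefore still have changed by about 10 points.

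The 5 genes, their pathway lists and the tests were chosen with earlier results of these data known. For each gene the regions named were those within 1 kb of its starts, those called in any comparison (the 6 with the smallest adjusted p where more were called), the one with the smallest Fisher p between lines and the 2 with the highest mean percentile, and all other named regions were chosen after their values were seen. The alternatives were other scalings, score and width limits, coverage and list minimums, missing peaks counted as 0, a replicate block and leaving out each library. Leaving out the 12 h libraries was chosen after seeing the data. Some genes of the lists are not reported here.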

Additional observations from a re-analysis of the deposited data

Results flagged for a closer look

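A single result met the rules for a closer look. At PGR +37.8 kb, in intron 2 of the progesterone receptor gene, the effect of EGF on the rank percentile was larger in BT474R than in BT474 by 13.7 ± 3.4 points (limma interaction, adjusted p = 0.0279). The call was lost with log2 scores (adjusted p = 0.120), without the 12 h libraries (adjusted p = 0.173) and without any of 9 single libraries (highest adjusted p = 0.0617), and the interaction gave 0 calls with equal numbers of peaks or a score of at least 400. The EGF effect was 19.5 ± 3.1 in BT474R, where all 6 EGF libraries lay above all 6 controls, and 5.77 ± 1.75 in BT474, where the EGF libraries (63.1 to 71.6) also lay above the controls (58.1 to 62.3) but the call was lost without any of 9 libraries. Control values started lower in BT474R (19.7 to 40.5). The part that this lower starting point plays in the difference was not tested.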

How the results depend on the processing

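Peak lists limit these results: depth was unknown, a missing peak may be a peak just under the threshold, and 2 libraries per group make calls at single times weak. Of 110 called results at single regions, 70 kept their call without each library in turn, 40 lost it without at least 1, and 0 changed direction. All 33 presence calls between lines kept theirs.

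With a score of at least 400 or an equal number of top peaks, 46 and 44 regions remained in the windows, and the presence calls for EGF and HRG in BT474 were 0 under both. The replicate number as a block removed the 1 call for EGF in BT474 at 1 h (0) and gave 2 at 12 h, and changed no other count by more than 1.5 times. At the median, same-numbered libraries did not deviate together (correlation -0.0004 in BT474 and 0.009 in BT474R over 45 pairs of groups each). Single pairs of groups differed widely. The BT474 extremes were -0.182 and 0.583, and those of BT474R were -0.281 and 0.429. A median over all pairs cannot show whether the numbers paired libraries in some groups, and this was not tested. ESR1 -173.9 kb (EGF at 1 h, adjusted p = 0.0524), PGR +95.5 kb (HRG at 12 h, adjusted p = 0.0505) and TFF1 -0.3 kb (control at 12 h in BT474R, adjusted p = 0.0544) were lost under the block by limma. TFF3 +52.5 kb changed direction between the lines, at 2.12 with equal peaks, 0.0922 with percentiles among shared regions, 0.0804 with log2 scores and 0.932 without the 12 h libraries.

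Counts of regions called by limma that moved by more than 1.5 times were as follows. With a score of at least 400, fewer regions could be tested: 5 for EGF in BT474 (0, 0 and 3 at 1, 12 and 24 h), 4 for HRG in BT474 (4, 1 and 1), 1 for EGF in BT474R (1 at 12 h, 0 at 24 h), 0 for HRG in BT474R (2 at 12 h), 1 for control at 24 h in BT474R, 7 between lines and 0 for the EGF interaction. With equal peaks they were 3 for EGF in BT474 (0 at 1 h, 3 at 24 h), 6 for HRG in BT474 (4, 1 and 1), 1 and 2 for EGF in BT474R at 12 and 24 h, 0 for HRG in BT474R (0 at 12 h), 0 and 1 for control in BT474R at 12 and 24 h, 9 between lines and 0 for the interaction. With trimmed peaks EGF in BT474R at 24 h gave 2. With percentiles among shared regions EGF in BT474 gave 0, 3 and 9 at single times, HRG in BT474 at 1 h 5, EGF in BT474R 4 (3 at 24 h), HRG in BT474R 0 (0 at 12 h) and control at 12 h in BT474R 0. With log2 scores EGF in BT474 at 12 h gave 2, EGF in BT474R 4 (1 and 4 at 12 and 24 h), HRG in BT474R 0 (0 at 12 h), control at 12 h in BT474R 0 and the interaction 0. With missing peaks counted as 0, more regions could be tested: 61 between lines, 2 and 2 for EGF in BT474 at 1 and 12 h, 1 and 1 for control in BT474 at 12 and 24 h, 10 for EGF in BT474R (3 at 1 h, 13 at 24 h), 2 for HRG in BT474R (0 at 12 h), 2 and 14 for control in BT474R at 1 and 12 h, and 4 for each interaction. With baseline and control libraries alone (fewer samples) the presence test called 20 between lines. Without the 12 h libraries HRG in BT474R gave 0 and the presence tests of EGF and HRG in BT474 gave 0. The cause was not tested for scalings.

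Leaving out 1 library gave 33 to 35 presence and 14 to 16 rank calls between lines. In BT474 it gave 6 to 12 for EGF (0 to 2, 1 to 3 and 2 to 7 at 1, 12 and 24 h), 8 to 12 for HRG (1 to 8, 2 to 4 and 1 to 6) and 0 to 1 for control at 1 h. In BT474R it gave 2 to 5 for EGF (0 to 5 and 0 to 6 at 12 and 24 h), 0 to 6 for HRG (0 to 8 and 0 to 1 at 12 and 24 h) and 0 to 2, 0 to 9 and 0 to 3 for control at 1, 12 and 24 h. The EGF interaction gave 0 to 2.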
